A study of Mus musculus with 4 samples.

Results

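The thick ascending limb is the stretch of the nephron, between the loop's thin limbs and the distal convoluted tubule, that takes up salt without water. The 7 genes described here, taken by their array gene name, are *Umod*, *Egf*, *Slc12a1*, *Kcnj1*, *Bsnd*, *Ptger3* and *Casr*, of 37074 gene names on the array. They have 14 of its 56605 probes, and all 7 passed the filter on dim probes with 24638 genes. Kidneys of ICR mice, an outbred strain, were taken 1 day after an injection of vancomycin, a glycopeptide antibiotic that can injure the kidney, or of saline. The 4 groups were vancomycin at zeitgeber time 14 (ZT14, in hours from the start of light), saline at ZT14, vancomycin at ZT2 and saline at ZT2, each with 1 Cy3 array of total RNA. Dose, route, sex, age and the number of mice behind a sample are not given in the labels.

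In this segment the apical cotransporter NKCC2 carries sodium, potassium and chloride into the cell, the potassium channel ROMK returns potassium to the lumen, and chloride leaves on the blood side with the help of the subunit barttin. The lumen thus becomes positive, which drives calcium and magnesium between the cells. The calcium-sensing receptor and the prostaglandin receptor EP3 damp this transport. The same cells secrete uromodulin, the most abundant protein of normal urine, and make the precursor of epidermal growth factor, which the distal convoluted tubule makes as well.

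With 1 array per group a difference at a single time has no test, and the spread between animals is unknown. A level is the log2 of the processed signal over the array's 75th percentile of that signal, and levels are not comparable between genes. The error attached to a value comes from the scanner software's error model for that spot, and it is technical. At the 7 bright probes it was 0.14 log2 units on every array, and 0.20 for a difference between 2 arrays. At those probes it thus acts as a fixed cut-off and not as a spread measured at the spot. The median SD between repeat spots of the same probe was smaller, from 0.042 to 0.049 over the arrays. In bulk kidney RNA, fewer cells of a type and less RNA per cell cannot be told apart. All 7 genes were well above background on all 4 arrays at their brightest probe and 0 spots were saturated, so the segment's markers were present in each kidney sample. The 75th percentile of the signal ran from 490.8 to 678.1, and 60.6% to 64.7% of spots were well above background. Both ZT14 arrays lay on a slide of their own, as did both ZT2 arrays, so slide and time cannot be told apart. Position on the slide and treatment cannot be told apart either.

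The genes of the limb were mostly a little higher in vancomycin kidneys, and at the brightest probe of each gene all differences were under 2-fold. The difference was above 0 for 6 of 7 genes at ZT14 and for 7 of 7 at ZT2, where 50.6% and 50% of all genes had one above 0. At both times together it was above 0 for 6 of 7, against 28.8% of all genes. The median over the 7 was 0.15 at ZT14 and 0.33 at ZT2, and the median over all genes was 0.01 and 0.00. Past 2-fold higher stood 0 of 7 at each time, where 2.31% (ZT14) and 3.7% (ZT2) of all genes stood, and 0 of 7 stood past 2-fold lower, where 4.49% and 5.98% of all genes stood. The difference exceeded its spot error of 0.20 for 3 genes at ZT14 and for 6 at ZT2. The share of all genes past their own error was not counted. Quartiles over all genes, -0.21 and 0.19 at ZT14 and -0.24 and 0.22 at ZT2, were near 0.20 in size. Over all genes, differences of that size were thus common. Among the brightest genes the quartiles were narrower, as given further below. Over both times limma, with injection time as a term, called 0 of 24638 genes (0.0% of all genes) at an adjusted p of 0.05, and 2107 (8.55%) had an unadjusted p under 0.05. None of these 2107 was among the 7.

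**Figure D1:**
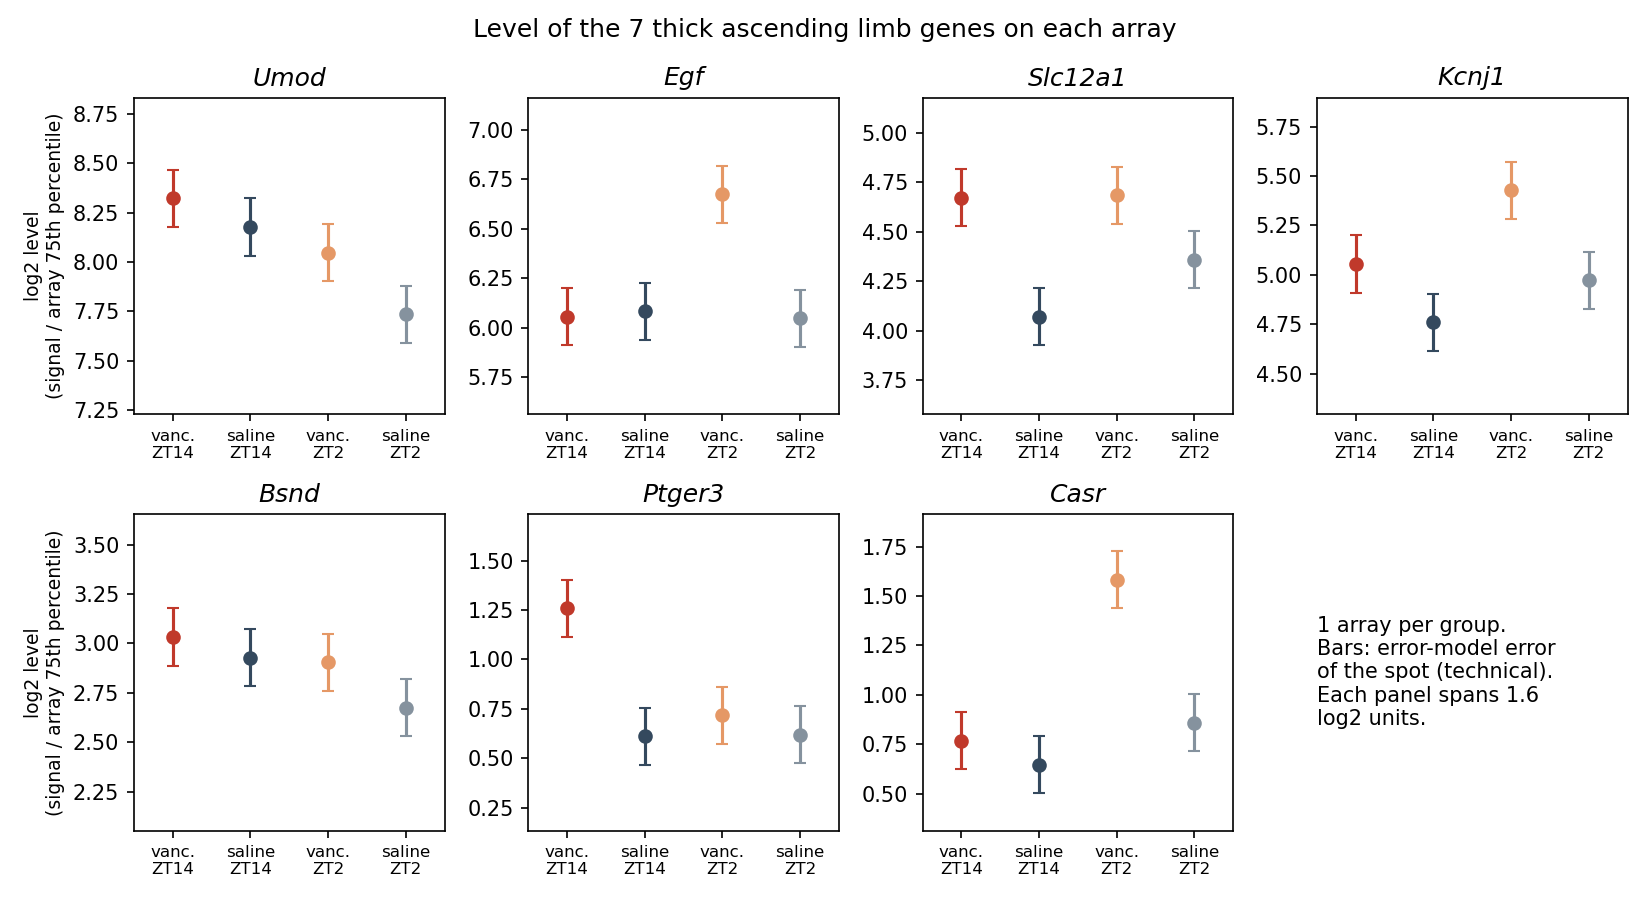
Log2 level (processed signal over the array's 75th percentile) of each of the 7 genes at its brightest probe, 1 array per group; bars are the technical error of the spot, and each panel spans 1.6 log2 units. Both saline arrays lie lowest for *Slc12a1*, *Kcnj1* and *Ptger3*, an order whose share over all genes was not counted. For *Kcnj1* and *Ptger3* the gap to the next vancomycin array is within the spot error. On this scale *Umod* is higher on both ZT14 arrays than on both ZT2 arrays. That order of the times turns with quantile normalization and with the authors' values.

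*Umod* encodes uromodulin. Its level was 8.32 with vancomycin and 8.18 with saline at ZT14, and 8.05 with vancomycin and 7.74 with saline at ZT2. Both ZT14 arrays were thus above both ZT2 arrays, though saline at ZT14 exceeded vancomycin at ZT2 by only 0.13, within the spot error. This order of the times depended on the scaling, and the sign of ZT14 minus ZT2 turned with quantile normalization and with the authors' values. Vancomycin was above saline within each time. The difference was 0.15 ± 0.20 at ZT14 (1.11-fold) and 0.31 ± 0.20 at ZT2 (1.24-fold, technical error of the spots), so that at ZT14 it lay within the error. Over both times limma gave 0.23 ± 0.14 (SE, n = 2 arrays per treatment, adjusted p = 0.735). Its single probe lay at chr7:126606529-126606588 on the minus strand of mm9, the build the file headers name. Whether a probe of this array lies in a coding exon or a UTR was not annotated in the tables used here. Probe sequences are those of the array files, 5′ to 3′, and only the first 30 of the 60 bases are given unless stated, with no base singled out by capitals.
Umod probe: aaacaagttggcatctttcagtgctgttct

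*Egf* encodes the precursor of epidermal growth factor. It stood at 6.06 with vancomycin and 6.08 with saline at ZT14, and at 6.68 with vancomycin and 6.05 with saline at ZT2. The vancomycin array at ZT2 was high by 0.59 over the next array, and the other three lay within the spot error of each other. The difference was -0.03 ± 0.20 at ZT14 and 0.63 ± 0.20 at ZT2 (1.54-fold). The 2 other probes gave -0.32 and 0.15 at ZT14, and 0.46 and 0.85 at ZT2, so all 3 were higher with vancomycin at ZT2 and differed in sign at ZT14. Limma gave 0.30 ± 0.24 over both times (SE, adjusted p = 0.78). The brightest probe, at chr3:129380577-129380636, and the next, at chr3:129402544-129402603, both on the minus strand, are shown since the ZT2 difference was present on both.
Egf probe, brightest: cttcttgaagtctttcccagtgaaaacgct
Egf probe, second: caagcaagcatggaaggtattgtgttcacc

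*Slc12a1* encodes NKCC2, the target of loop diuretics. Its level was 4.67 with vancomycin and 4.07 with saline at ZT14, and 4.68 with vancomycin and 4.36 with saline at ZT2. The vancomycin arrays were alike and lay above both saline arrays. The share of all genes with that order was not counted. The difference was 0.60 ± 0.20 at ZT14 (1.52-fold) and 0.33 ± 0.20 at ZT2 (1.25-fold). Limma gave 0.47 ± 0.16 over both times, the largest change of the 7 (SE, n = 2 arrays per treatment, adjusted p = 0.61). A second, much dimmer probe, which the array assigns to another transcript record, did not follow this pattern. It read -4.44 with vancomycin and -4.48 with saline at ZT14, a difference of 0.05 ± 0.27. At ZT2 it read -4.18 with vancomycin and -5.96 with saline, where it was not well above background, which makes it at least 2.89-fold higher with vancomycin. That bound uses the lowest signal well above background on the saline array. The bright probe lay at chr2:125055224-125055283 and the dim one at chr2:125021044-125021103, both on the plus strand. They are shown because they gave different answers.
Slc12a1 probe, bright: ctgctagctggaggtatattaggtaggtga
Slc12a1 probe, dim: ggagaccaactaaaagtgataaatattctt

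*Kcnj1* encodes ROMK, which recycles potassium here and secretes it in the collecting duct. It read 5.05 with vancomycin and 4.76 with saline at ZT14, and 5.43 with vancomycin and 4.97 with saline at ZT2. Vancomycin was higher within each time, by 0.29 ± 0.20 at ZT14 (1.23-fold) and 0.46 ± 0.20 at ZT2 (1.37-fold), and the arrays ordered the same way as for *Slc12a1*. The gap between the vancomycin array at ZT14 and the saline array at ZT2, 0.08, was within the spot error. Limma gave 0.37 ± 0.14 over both times (SE, adjusted p = 0.63). Its only probe lay at chr9:32206612-32206671 on the plus strand.

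*Bsnd* encodes barttin, which the intercalated cells of the collecting duct also use. It read 3.03 with vancomycin and 2.93 with saline at ZT14, and 2.91 with vancomycin and 2.67 with saline at ZT2. It varied least of the 7, with a range of 0.36 over the arrays, and only the saline array at ZT2 lay apart from its neighbour by more than the spot error. The difference was 0.11 ± 0.20 at ZT14 and 0.23 ± 0.20 at ZT2, and limma gave 0.17 ± 0.14 (SE, adjusted p = 0.79). Its probe lay at chr4:106156065-106156124 on the minus strand. Among the 7, *Umod* and *Bsnd* had the most alike patterns, at a distance of 0.18 between levels centred on their mean over the 4 arrays.

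*Ptger3* encodes EP3, a prostaglandin E2 receptor that lowers cyclic AMP and opposes vasopressin in this segment. At its brightest probe it read 1.26 with vancomycin and 0.61 with saline at ZT14, and 0.72 with vancomycin and 0.62 with saline at ZT2. The vancomycin array at ZT14 stood 0.54 above the next, and the other three did not differ beyond the spot error. The difference was 0.65 ± 0.20 at ZT14 (1.57-fold) and 0.10 ± 0.20 at ZT2, and limma gave 0.37 ± 0.21 over both times (SE, adjusted p = 0.71).
A second probe well above background on all arrays gave 0.44 at ZT14 and -0.06 at ZT2, the same pattern. The 2 dim probes disagreed. The one at chr3:157270101-157270160 was at least 2.31-fold higher with vancomycin at ZT14 and higher by 0.77 ± 0.34 at ZT2. The one at chr3:157308072-157308131 was well above background only with saline at ZT14, where vancomycin was lower by at least 1.35-fold. The bright probe lay at chr3:157307508-157307567 and the second at chr3:157268044-157268103, all 4 on the plus strand. They are shown because the 2 dim probes disagreed, while the 2 brighter ones gave the same pattern. All 60 bases are given for the second.
Ptger3 probe, bright: ctaaatgttcagctagagctgttaaaagga
Ptger3 probe, second: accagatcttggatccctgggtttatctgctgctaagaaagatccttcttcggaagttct
Ptger3 probe, dim and higher at ZT14: aaagggagtcactatgaaaagaacatcagt
Ptger3 probe, dim and lower at ZT14: ggtaaagactatcatcagaggaatgtccat

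*Casr* encodes the calcium-sensing receptor, which in this segment restrains calcium uptake. It read 0.77 with vancomycin and 0.65 with saline at ZT14, and 1.58 with vancomycin and 0.86 with saline at ZT2. The vancomycin array at ZT2 stood 0.72 above the next, and neighbours among the other three did not differ beyond the spot error. The difference was 0.12 ± 0.20 at ZT14 (1.09-fold) and 0.72 ± 0.20 at ZT2 (1.65-fold), the largest of the 7 genes at either time by the brightest probe. Its second, dimmer probe gave 0.43 ± 0.25 at ZT14 and 0.95 ± 0.24 at ZT2, again larger at ZT2. Limma gave 0.42 ± 0.22 over both times (SE, adjusted p = 0.70). The bright probe lay at chr16:36493804-36493863 and the dimmer at chr16:36494629-36494688, both on the minus strand, and they are shown as 2 readings that gave the same order of the times, the dimmer in full.
Casr probe, bright: atgtacatagcgtaatccttaagaaactgc
Casr probe, dimmer: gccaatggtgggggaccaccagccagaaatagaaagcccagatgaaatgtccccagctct
*Casr* had the widest range over the arrays (0.93). By the Euclidean distance between levels centred on their mean over the 4 arrays, the 3 genes most like it of 13998 with an ordinary symbol were *Uroc1* (0.05), *Hsf5* (0.06) and *Adamts18* (0.06). With 4 arrays this is a description only.

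**Figure D2:**
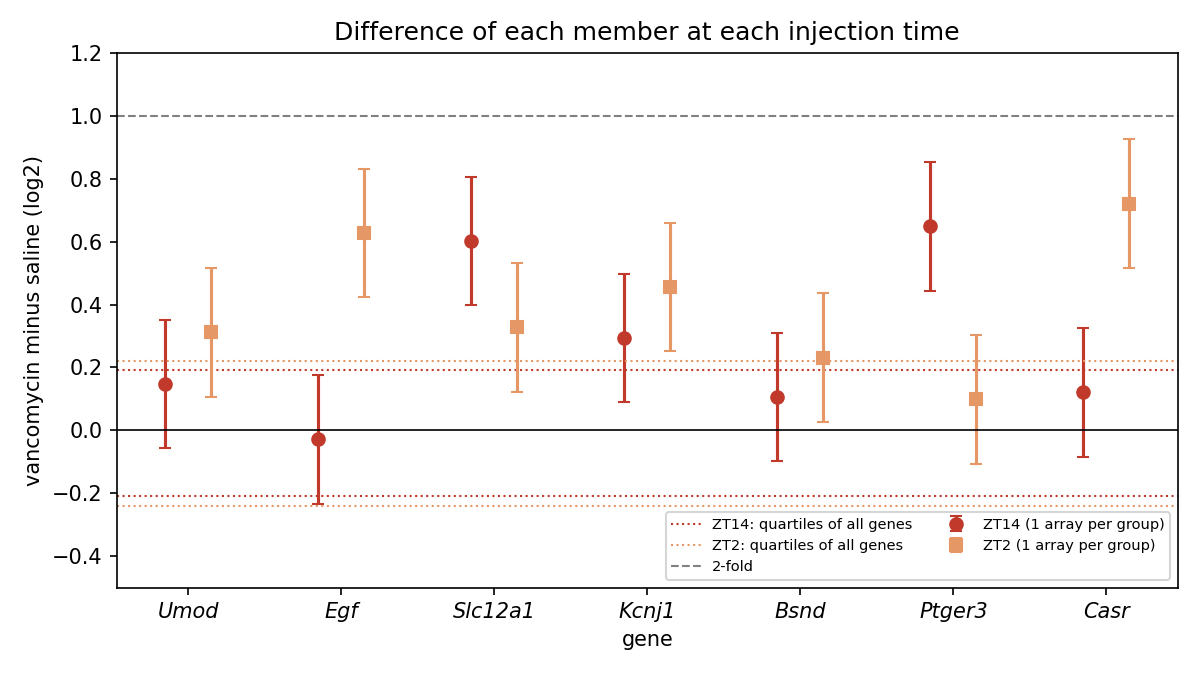
Vancomycin minus saline on the log2 scale for the 7 genes at ZT14 (circles) and ZT2 (squares), 1 array per group, with the technical error of the difference; dotted lines are the quartiles over all genes and the dashed line is 2-fold. All points but *Egf* at ZT14 lie above 0 and none reaches 2-fold.

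The 2 times ranked the genes differently. *Ptger3* and *Slc12a1* led at ZT14, and *Casr* and *Egf* at ZT2. The change at ZT14 minus that at ZT2 was -0.66 for *Egf*, -0.60 for *Casr* and 0.55 for *Ptger3*, each with a spot error of 0.29, and between -0.16 and 0.28 for the other four. These differences between times were not tested, since no degrees of freedom remain for them. Quartiles of the difference over all genes were -0.21 and 0.19 at ZT14, and -0.24 and 0.22 at ZT2. Over the brightest 10% of genes, which hold 4 of the 7, the median difference was 0.03 at ZT14 and -0.01 at ZT2. The quartiles over these bright genes were narrower, -0.09 and 0.13 at ZT14, and -0.12 and 0.11 at ZT2.

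**Figure D3:**
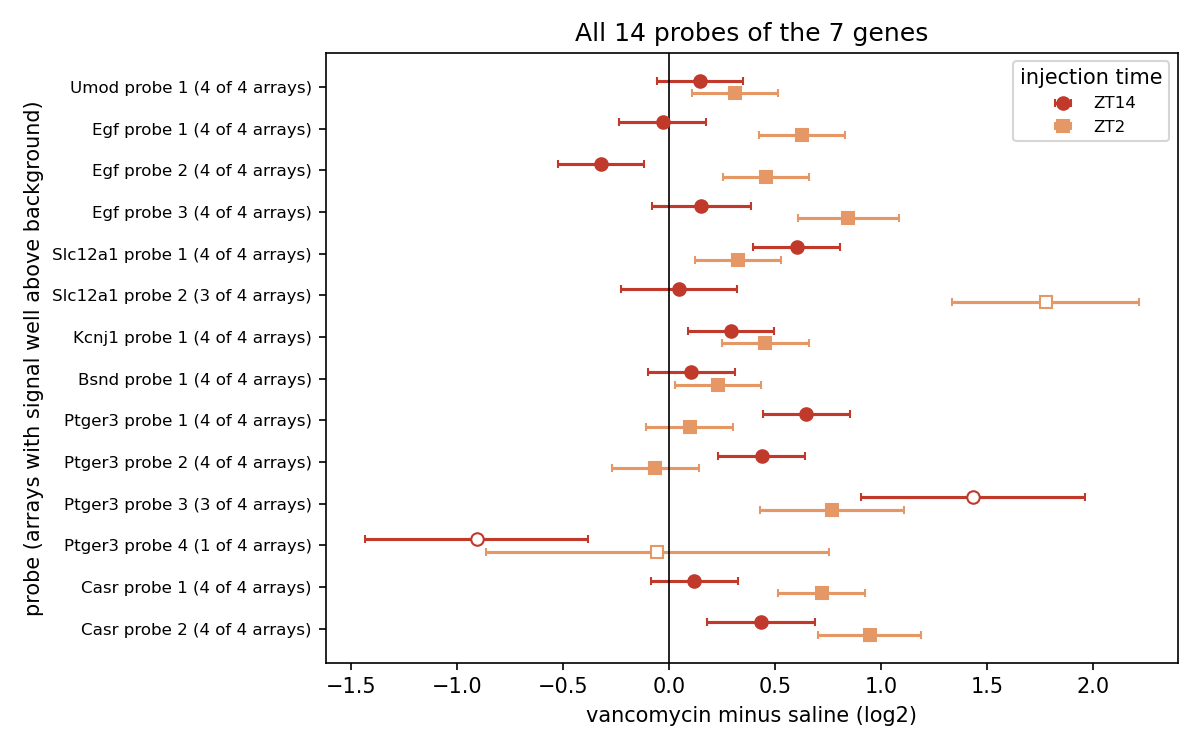
Vancomycin minus saline (log2) at each of the 14 probes at ZT14 and ZT2, with the technical error; white symbols mark a difference where a probe was not well above background on 1 or both arrays. Of 11 probes well above background on all arrays, 9 lie above 0 at ZT14 and 10 at ZT2. Of all genes at their brightest probe, 50.6% and 50% lie above 0, and the share over all probes was not counted.

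Between injection times the genes split. In vancomycin kidneys 3 of 7 were higher at ZT14 than at ZT2 (53.4% of all genes) and in saline kidneys 3 of 7 (54.1% of all genes). These values use the same 4 arrays as the differences above and are not independent of them. *Umod* was higher at ZT14 by 0.28 with vancomycin and 0.44 with saline at the 75th percentile scaling, but over both treatments its change was -0.32 with quantile normalization and -0.32 with the authors' values. No direction is therefore given for it between times. *Bsnd* was higher at ZT14 by 0.13 with vancomycin and 0.25 with saline. *Casr* was lower at ZT14, with -0.81 in vancomycin and -0.21 in saline kidneys, and *Kcnj1* with -0.37 and -0.21. *Slc12a1* was at -0.01 with vancomycin and -0.29 with saline (over both treatments -0.15, but 0.23 with the mean over probes), *Egf* at -0.62 and 0.04, and *Ptger3* at 0.54 and -0.01. The probes of *Egf* differed here, with -0.01 and 0.77 at the second and -0.49 and 0.20 at the dimmest. Over both treatments *Egf* was at -0.29, but at -0.02 with the mean over probes. By limma over both treatments the ZT14 minus ZT2 change was 0.36 ± 0.14 for *Umod* (SE, adjusted p = 0.24) and -0.51 ± 0.22 for *Casr* (adjusted p = 0.265), and for the others the adjusted p was 0.30 to 0.57. In this fit 0 of 24638 genes passed, with 6710 (27.2%) at an unadjusted p under 0.05, and under 4 alternatives between 1636 and 3396 passed. Markers of other cells differed between the times as well, with a median ZT14 minus ZT2 of -3.94 for 7 adipose, -1.02 for 9 adrenal and 1.06 for 3 measured erythroid markers. Of the adipose markers 3 were not well above background on each ZT14 array, and of the adrenal markers 4 on each saline array. Both medians thus draw on differences with dim markers, whose size is uncertain. The part of these markers in the time differences of the 7 genes was not tested.

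Among other genes that serve this segment, a list of 50 of which 48 were measured, most differences were small. They took both signs at ZT14 and were mostly above 0 at ZT2. The list had 26 of 48 above 0 at ZT14 (50.6% of all genes) and 36 of 48 at ZT2 (50% of all genes). Its medians were 0.04 and 0.12. At both times 23 were above 0 (28.8% of all genes) and 9 below 0 (28.1% of all genes). At ZT14 0 genes were past 2-fold in either direction, and at ZT2 0 were past 2-fold higher and 2 past 2-fold lower (5.98% of all genes). By limma 0 of the 48 passed over all genes, and 4 had an unadjusted p under 0.05, where 8.55% of all genes had one.

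Of the segment's 6 transcription factor genes, 5 were above 0 at ZT14 (50.6% of all genes) and 6 at ZT2 (50% of all genes). Their medians were 0.26 and 0.28. *Irx2*, an Iroquois factor of the loop, differed by 0.60 at ZT14 and 0.24 at ZT2, and its relative *Irx1* by 0.59 and 0.30. *Pou3f3*, a POU factor needed to form the ascending limb in mice, differed by 0.32 and 0.35. The 11 salt and potassium transport genes had medians of -0.01 at ZT14 and 0.04 at ZT2. Above 0 were 4 of 11 at ZT14 (50.6% of all genes) and 7 of 11 at ZT2 (50% of all genes).

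The claudins of the paracellular path differed by little, with medians of 0.07 at ZT14 and 0.08 at ZT2 over 4 genes, and *Cldn10* at 0.00 and 0.23. Kinases and partners of NKCC2 had medians of -0.03 and 0.10 over 8 genes. *Stk39*, the kinase SPAK, which phosphorylates the cotransporter, differed by 0.44 and 0.11. *Sorl1*, a sorting receptor that acts on that pathway, differed by -0.36 and 0.53, with a second probe at -0.54 and 1.69. Among hormone receptors and cyclases *Avpr2*, the vasopressin receptor gene, differed by 0.58 and 0.01, and *Calcr*, the calcitonin receptor gene, by -0.40 ± 0.27 and 0.77 ± 0.26. *Gp2*, which encodes a glycoprotein related to uromodulin, was higher by 0.70 ± 0.20 at ZT14 and 0.69 ± 0.20 at ZT2 (limma 0.70 ± 0.14 SE, adjusted p = 0.52). *Hpn*, the protease hepsin that releases uromodulin, differed by -0.04 and -0.10.

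*Nos1* and *Ptger4* were the 2 genes past 2-fold lower. *Nos1*, the neuronal nitric oxide synthase of the macula densa, read -4.05 with vancomycin and -3.11 with saline at ZT14, and -4.66 and -2.95 at ZT2. Both vancomycin arrays lay under both saline arrays, with differences of -0.94 ± 0.24 and -1.71 ± 0.28. How many of all genes had that order was not counted. *Ptger4*, a prostaglandin receptor gene that leukocytes also express, read -0.94 with vancomycin and -0.01 with saline at ZT14, and -0.94 and 0.53 at ZT2, which gave -0.93 ± 0.20 and -1.47 ± 0.20. The second probe of each gene was lower at both times as well, though that of *Nos1* was not well above background on 1 of 4 arrays. Limma gave -1.33 ± 0.26 and -1.20 ± 0.21 over both times (SE, adjusted p = 0.52 each). *Slc5a3*, which takes up the osmolyte inositol, was higher by 0.71 ± 0.20 at ZT14 and 0.46 ± 0.20 at ZT2, and at its second probe by 0.80 and 0.25 (limma adjusted p = 0.55).

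**Figure D4:**
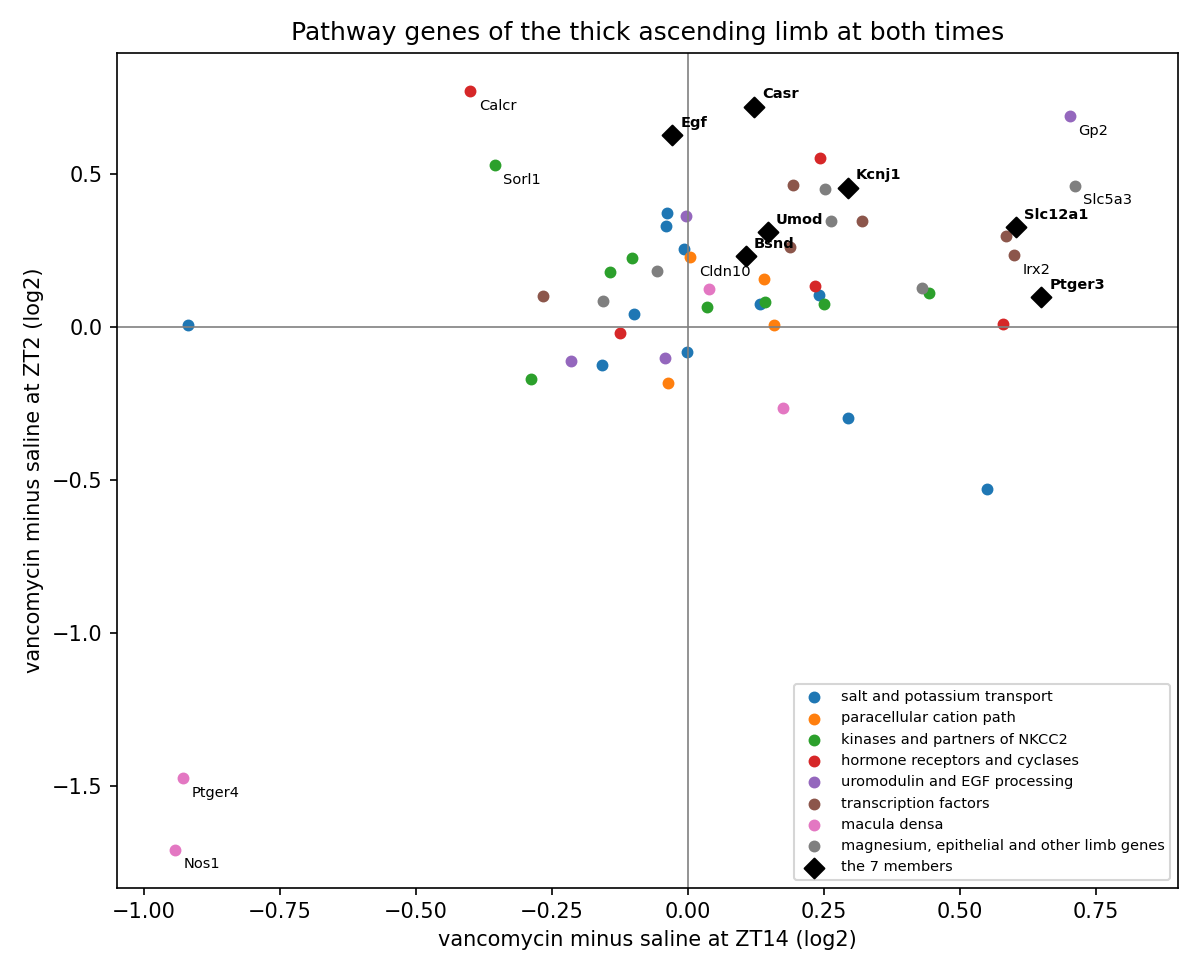
Vancomycin minus saline (log2) at ZT14 (horizontal) and ZT2 (vertical) for the 48 measured pathway genes, coloured by role, and the 7 members (black diamonds). Most points lie within 0.5 of 0 at ZT14, and *Nos1* and *Ptger4* stand apart at the lower left.

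Beside markers of other nephron segments, the median of the 7 genes (0.15 at ZT14 and 0.33 at ZT2) lay inside the spread of the segments. Medians were 0.07 and 0.10 for the distal convoluted tubule (7 genes), 0.11 and 0.21 for intercalated cells (9 genes), 0.50 and -0.14 for collecting duct principal cells (8 genes) and 0.55 and 0.83 for the thin limb (5 genes). They were -0.03 and 0.08 for the proximal tubule (12 genes) and 0.27 and -0.17 for podocytes (5 genes). No difference between the lists was tested, and nothing here is particular to the thick ascending limb.

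**Figure D5:**
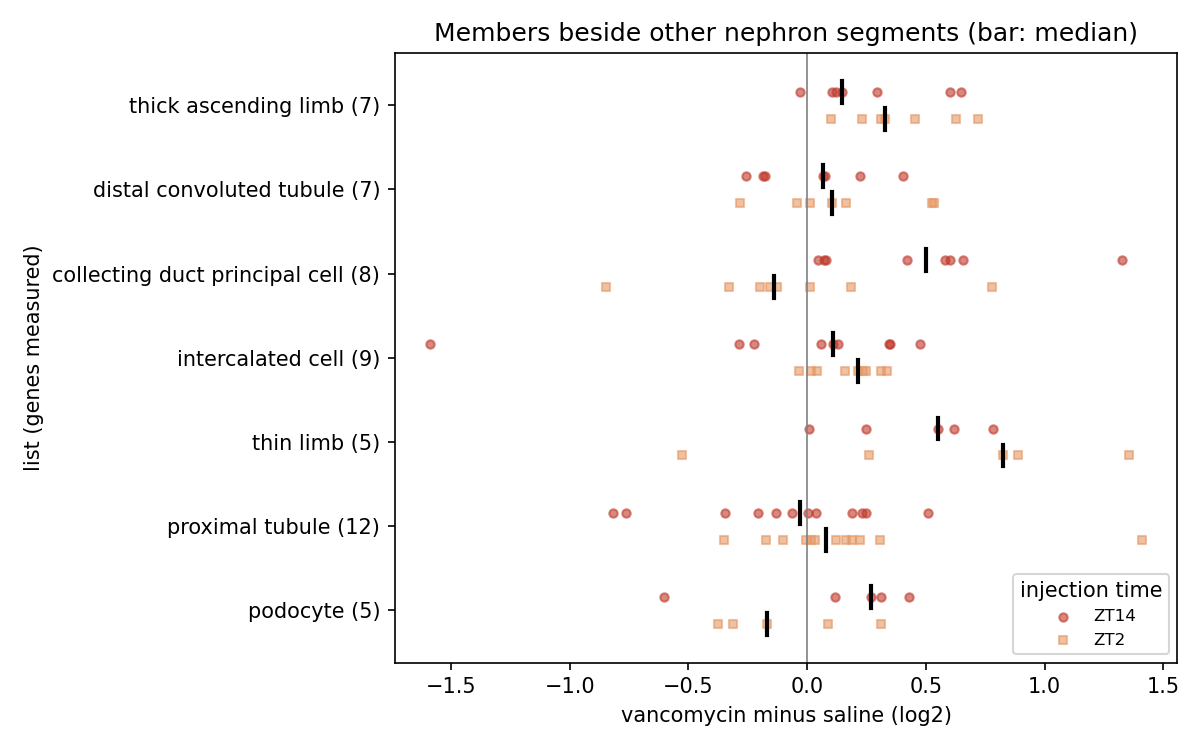
Vancomycin minus saline (log2) of each marker gene at ZT14 and ZT2 for the 7 thick ascending limb genes and 6 lists of other nephron segments; points are genes at 1 array per group, and black bars are list medians. The thin limb has the highest medians at both times, at ZT14 close to collecting duct principal cells (0.55 and 0.50). All 5 thin limb and all 8 principal cell genes lie above 0 at ZT14 (50.6% of all genes). All 7 thick ascending limb genes do so at ZT2 (50% of all genes). Elsewhere the genes of a list straddle 0.

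Markers of other cells moved with the treatment as well. The summed linear level of 9 adrenal markers was 1.32 with vancomycin and 0.725 with saline at ZT14, and 6.49 and 0.676 at ZT2, with 4 of 9 not well above background on each saline array. That of 6 stromal and smooth muscle markers was 41.9 with vancomycin and 45.2 with saline at ZT14, and 31.6 and 88.4 at ZT2. That of 3 measured erythroid markers of 5 was 43.3 and 35.1 at ZT14, and 8.21 and 34.3 at ZT2. At each time all 5 endothelial markers had less signal with vancomycin, as had 5 of 6 measured lymphocyte markers. Of 6 macrophage markers, 6 had less at ZT14 and 5 at ZT2. At both times together 5 endothelial, 5 lymphocyte and 5 macrophage markers had less, against 28.1% of all genes. At a single time 50.6% (ZT14) and 50% (ZT2) of all genes had a difference above 0. The summed level of 7 adipose markers was 10.5 with vancomycin and 8.98 with saline at ZT14, with 3 of 7 not well above background on each, and 15.04 and 25.9 at ZT2. *Fabp4*, the brightest of the 7 on each array, weighs most in these sums. At ZT2 the list went both ways. Past 2-fold higher were 2, *Ucp1* and *Cidea* (3.7% of all genes), and past 2-fold lower 3, *Adipoq*, *Plin1* and *Cidec* (5.98% of all genes). The part of these shifts in the values of the thick ascending limb genes was not tested.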

How the data were processed

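Cy3 arrays of kidney RNA from 4 samples were used. Per the file headers, images were read by Agilent Feature Extraction 10.7.1.1 (9.5.1.1 per the submitters' processing notes), and the deposited processed signal is an intensity with background subtracted and trends within the array removed, not normalized between arrays. The authors' deposited value table, also an intensity, had equal medians and quartiles in its 4 columns and served as an alternative. Probe coordinates are mm9 per the file headers.

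Outlier spots were dropped, and each array's 75th percentile was subtracted from its log2 processed signals. Probes stayed in when 1 or more arrays had 50% or more of the probe's spots well above background, and the brightest such probe stood for a gene. limma 3.58.1 in R 4.3.3 fitted treatment and injection time on all genes, with 1 residual degree of freedom, a prior of 1.86 degrees of freedom, and Benjamini-Hochberg adjustment. With so few arrays, the p-values rest on the disagreement between the 2 injection times and not on animals. Precision is limited by 1 array per group. A difference with a dim probe on 1 side is a bound. Pathway genes were named when past 2-fold at a time, or as the largest difference of their subgroup, and others named beside them were chosen after their values were seen. Members, lists and tests were chosen with earlier results of these data known. Results for some genes of the pathway list are not reported here.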

Additional observations from a re-analysis of the deposited data

Results flagged for a closer look

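Of the thick ascending limb genes and pathway genes named in the report, 3 had vancomycin minus saline differences of opposite sign between times. With 1 array per group the difference between times was not tested. Among the named markers of other cells, *Fabp4* also differed in sign, at 0.24 at ZT14 and -0.77 at ZT2. *Egf* was at -0.029 at ZT14, within its spot error of 0.20, and at 0.63 at ZT2. *Sorl1* was at -0.36 at ZT14 and 0.53 at ZT2, and *Calcr* at -0.40 and 0.77, each past its spot error at both times. *Calcr* rests on 1 kept probe with low levels, from -4.42 to -3.62 over the arrays, all well above background.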

How the results depend on the processing

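Alternatives were normexp background correction, quantile normalization, median centring, a pseudocount of 16, the authors' values, the mean over probes, no filter and a filter that asks for signal well above background on every array. Cyclic loess was added after seeing the data. For the 7 genes, dropping the filter or asking for every array keeps the same brightest probe, so neither could change a difference. The authors' values lay close to those of quantile normalization. Under the 9 settings, which are thus not separate checks, the sign of all 14 vancomycin minus saline differences of the 7 genes was kept. Of the 14, 3 moved by more than the spot error. All 3 came with the mean over probes, which brings in the dim probes: *Slc12a1* then had 0.32 at ZT14 and 1.05 at ZT2, and *Ptger3* 0.40 at ZT14. Their median at ZT14 was then 0.278, and that of the pathway list 0.129. The count of the 7 past 2-fold higher at ZT2 was then 1 in place of 0. In the pathway list the mean over probes gave 1 gene past 2-fold lower at ZT14 and 1 past 2-fold higher at ZT2, both 0 otherwise, and normexp gave 1 past 2-fold lower at ZT2 in place of 2. Genes passing limma for vancomycin numbered 0 in every setting, also with an intensity trend and robust prior and without the injection-time term. For ZT14 minus ZT2 they numbered 2945 with normexp, 1666 with the pseudocount, 1636 with the stricter filter and 3396 with the trend and robust prior, against 0, and the cause was not tested. Between times the sign turned for *Umod*, with -0.315 under quantile normalization and -0.325 with the authors' values, and for *Slc12a1*, with 0.229 under the mean over probes. The smallest adjusted p of the 7 genes in any setting was 0.327 for vancomycin and 0.0519 for ZT14 minus ZT2. No analysis paired by replicate was possible because each group holds 1 array. The fit itself compares the treatments within each injection time. Leaving out an array leaves a single time, whose values stand in the report.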
